A study of Mus musculus with 12 samples.

Results

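The 28 week comparison set 3 libraries of primary podocytes with an Nsd2 knockout against 3 control libraries. It used 6 of the 12 libraries of the series. Of 23777 genes in the count table of this age, 15011 had enough reads to be tested, and all of them entered the fit. Control mice were Cre-/Nsd2fl/fl, which carry floxed Nsd2 alleles and no Cre. Knockout mice were Cre+/Nsd2fl/fl, in which a Cre said to act in podocytes removes the floxed part. Mice of both genotypes had diabetes from a high-fat diet and streptozotocin (HFD/STZ), a toxin of insulin-producing cells, so no library of this comparison came from a mouse without diabetes. The sources used here do not name the Cre driver, the strain or the sex of the mice. Nor do they say whether each library came from a separate animal, so the p-values rest on the spread among these libraries alone, and that spread may be technical.

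Nsd2 is a chromatin enzyme. It dimethylates lysine 36 of histone H3, a modification found over transcribed genes and between them. Podocytes are postmitotic epithelial cells that wrap the glomerular capillaries with interlocking foot processes. The slit diaphragm between these processes and the basement membrane under them make up the filter that keeps protein out of the urine, and podocyte injury is a known part of diabetic kidney disease. Hippo signalling is a kinase cascade: Stk3 and Stk4 activate Lats1 and Lats2, which keep the coactivators Yap1 and Wwtr1 (TAZ) away from their Tead partners.

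Total counts were 38989180, 38970590 and 38625577 in controls 1 to 3 and 33086164, 31405349 and 35547010 in knockouts 1 to 3, so every knockout total was below every control total. Levels are given below as normalised CPM (counts scaled to a common library size) for libraries 1 to 3 of each group in that order. Fold changes are knockout over control on the log2 scale, each with its standard error (SE), with 3 libraries per group throughout. A gene was called at an adjusted p below 0.05 (edgeR's quasi-likelihood test with Benjamini-Hochberg adjustment over all genes tested), and only called genes are said to have risen or fallen. A call is said to have held when it was kept without each of the 6 libraries in turn and with controls 2 and 3 summed into 1 library. For counts within a gene list, the libraries named are those whose removal moved a count by more than 1.5 times. Every such count is to be read beside the shares over all genes tested, 9.33% called higher and 11.9% called lower.

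Controls 2 and 3 were much alike. Their biological coefficient of variation was 0.0472, against 0.281 to 0.414 in the other 5 pairs of a group. Their reads were further apart than counting noise makes them (a mean chi-square of 4.6 per gene, where noise alone gives about 1), with a median of 1.32. This does not show whether they came from separate animals. They were kept as 2 libraries, and the main counts below are also given with their reads summed. Knockout 1 stood apart from knockouts 2 and 3. On the first principal component, with 61.6% of the variance, the controls lay at -58.9, -62.6 and -64.4 and the knockouts at 26.8, 99.6 and 59.5. On the second, with 23.3%, control 1 lay at 58.2, controls 2 and 3 at -17.6 and -17, and the knockouts at -67.3, 10.7 and 33.

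Nsd2 itself was at 87.2, 77.6 and 80.1 CPM across controls and 35.2, 35.2 and 42.9 across knockouts (log2 -1.11, SE 0.13, adjusted p = 0.00431), so the transcript was reduced in all 3 knockout libraries and not lost. The gene lies on chromosome 5, 33820725 to 33897975 (GRCm38, GENCODE M21, plus strand), and its exons overlap those of Nelfa on the other strand. All positions below are on the same build and annotation. Reads were summed per gene, so the deleted exons cannot be seen. The Y-linked gene Ddx3y was present in all 6 libraries, at 53.4 to 134 CPM, and did not pass (adjusted p = 0.178), while Xist, the transcript of the inactive X chromosome, had 0 to 6 counts.

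The libraries held podocyte transcripts beside those of other cells. On the per-length FPKM scale, mean control levels were 74.5 for Podxl (podocalyxin), 21.2 for Synpo (synaptopodin), 14 for the transcription factor Wt1 and 1.80 for Nphs1 (nephrin). On the same scale the simple epithelial keratin Krt18 was at 715, smooth muscle actin Acta2 at 431, the endothelial gene Pecam1 at 6.36 and the leukocyte gene Ptprc at 0.690. Nephrin, a defining podocyte gene, was thus low in the controls, and keratin and contractile transcripts were higher than any podocyte marker listed. In such bulk samples, fewer cells of a type and less RNA per cell cannot be told apart.

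At 28 weeks 3183 genes were called, 21.2% of those tested. Of these, 1400 were higher in the knockouts (9.33% of genes tested) and 1783 were lower (11.9%). Folds were larger on the lower side: 310 genes fell and 60 rose by more than 8-fold, and 1031 fell and 599 rose by more than 2-fold. With controls 2 and 3 summed, 456 genes were higher (2.98%) and 843 lower (5.51%), 1299 in all (8.5% of 15291), and 1293 of them were among the 3183. Without control 2 the counts were 450 and 838, without control 3 they were 444 and 822, without control 1 they were 882 and 1091, and without knockout 2 they were 767 and 1290. The groups did not overlap in 6332 genes (42.2% of those tested), 2904 with the knockouts higher (19.3%) and 3428 with them lower (22.8%). The calls that held numbered 1141, with 389 higher and 752 lower.

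**Figure D1:**
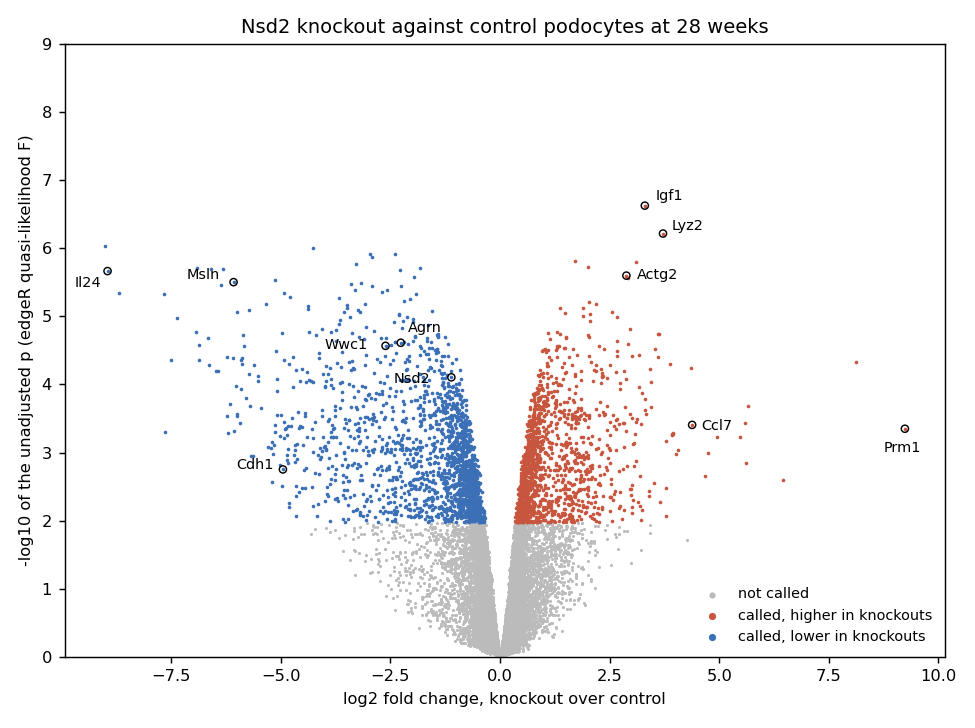
Each point is 1 of 15011 genes, with its log2 fold change (knockout over control) on the x axis and -log10 of its unadjusted p on the y axis; red and blue points are the 1400 and 1783 called genes. More genes fell than rose by over 8-fold (310 and 60), and the fitted folds of genes near 0 counts in a group, such as Prm1 and Il24, depend on the fit's prior count.

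The genes that rose most, among calls that held, included genes of myeloid cells, secreted factors and transporters. Lyz2 (chromosome 10, 117277331 to 117282321), the lysozyme of macrophages and other myeloid cells, was at 48.5, 51.1 and 48.8 CPM across controls and 505, 661 and 785 across knockouts, a 13.2-fold rise (log2 3.72, SE 0.2, adjusted p = 0.00191). Igf1, a growth factor of the insulin family, was at 13.4, 12.5 and 13.6 CPM across controls and 111, 128 and 151 across knockouts (log2 3.3, SE 0.15, adjusted p = 0.00191). Ccl7, a chemokine that draws monocytes, was at 0.973, 1.73 and 1.88 CPM across controls and 9.88, 35.2 and 50.8 across knockouts (log2 4.38, SE 0.66, adjusted p = 0.00742). Controls were close together for Lyz2 and Igf1 and less so for Ccl7, where control 1 was lower. All 3 genes had knockouts well above the controls, with knockout 1 the lowest of its group each time.

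Clec4n, a lectin receptor of myeloid cells, was at 0.819, 1.98 and 1.33 CPM across controls and 15.1, 17.9 and 27.7 across knockouts (log2 3.87, SE 0.41, adjusted p = 0.00371). Its neighbour in the family, Clec4d, was at 0.317 to 0.376 CPM in controls and 3.32 to 9.03 CPM in knockouts (log2 4.35, adjusted p = 0.00383). Serpinf1, an inhibitor of angiogenesis, was at 2.18, 2.17 and 1.73 CPM across controls and 19.2, 16.3 and 16.9 across knockouts (log2 3.1, SE 0.19, adjusted p = 0.00191). The retinoid-induced chemoattractant Rarres2 (chemerin, log2 3.16), the mitochondrial protein gene Ndufa4l2 (3.13), the choline transporter Slc5a7 (3.61), the membrane protein gene Tmem45a (3.62) and the interferon-induced GTPase Tgtp1 (3.59) made up the 10 highest. Tgtp1 has a near-identical copy, Tgtp2 (log2 3.2, adjusted p = 0.0186), and reads of these 2 genes may have been split between them. Exons of Rarres2 and Ndufa4l2 overlap genes on the other strand, as do those of Tagln (with Pcsk7), Sgpp2 (Farsb), Ezr (Sytl3), Nphs1 (Nphs1os), Mecom (Mecomos), Loxl3 (Htra2) and Pfkp (Pitrm1), described below, and no source used here gives the strand setting of the counting.

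The genes that fell most came close to 0 in the knockouts. Il24, a cytokine of the interleukin 10 family, was at 8.27, 13.6 and 14 CPM in controls and had 2 counts over the 3 knockouts, a ratio of 584 (95% counting interval 161 to 4830.0); such intervals cover counting error only. Sgpp2, a sphingosine phosphate phosphatase, was at 19.7, 12 and 11.1 CPM in controls and had 3 knockout counts, a ratio of 460.0 (95% counting interval 157 to 2230.0). Knockout 3 had 0 counts of both genes, where the depth allows up to 0.0857 CPM.

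Msln (mesothelin, a surface protein of mesothelial cells) was at 165, 109.7 and 114 CPM across controls and 2.67, 0.989 and 2.06 across knockouts (log2 -6.08, SE 0.41, adjusted p = 0.002). Ppbp, a platelet chemokine, was at 34.1, 54.4 and 56.5 CPM across controls and 0.564, 0.0659 and 1.00 across knockouts (log2 -6.44, SE 0.71, adjusted p = 0.00393). The interleukin 5 receptor gene Il5ra was at 24.7, 35.2 and 35.2 CPM across controls and 0.188, 0.0659 and 0.771 across knockouts (log2 -6.48, SE 0.71, adjusted p = 0.00392). In all 3 genes the groups were far apart, and the choice of these genes required groups that did not overlap. Mab21l4 (log2 -6.93), the potassium channel Kcnq1 (-6.17), the tight junction protein Cldn19 (-6.09) and the calcium sensor Hpcal4 (-6.0) were also among the 10 lowest. Exons of Kcnq1 overlap those of Kcnq1ot1 on the other strand.

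**Figure D2:**
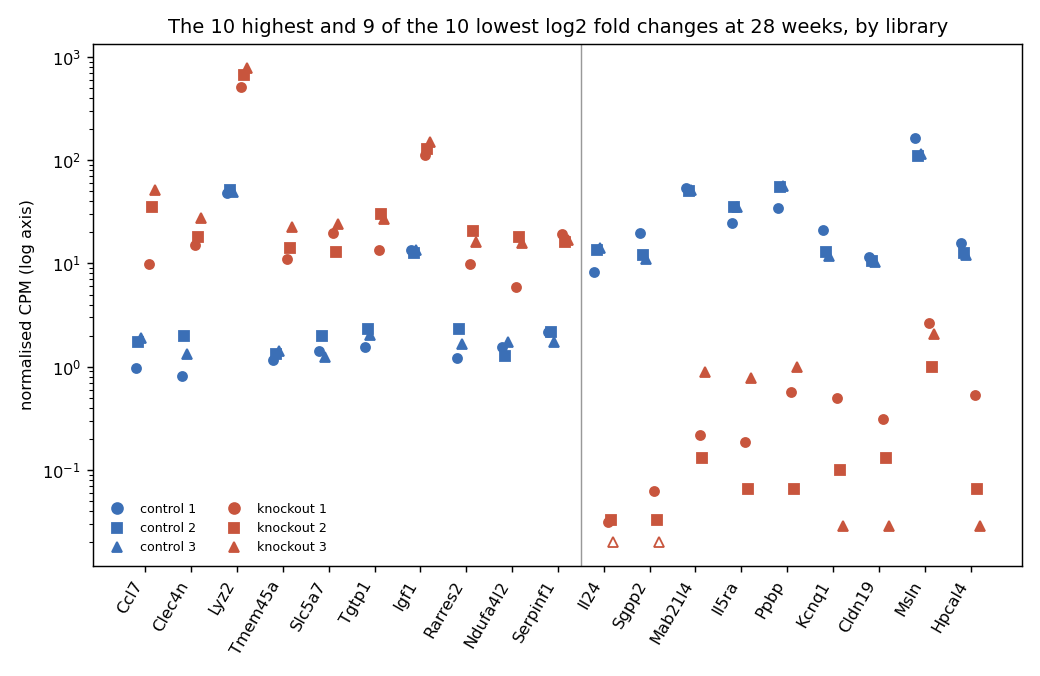
Normalised CPM on a log axis for the 10 genes with the highest log2 fold changes among the named calls that held and for 9 of the 10 with the lowest, 1 point per library; open symbols are libraries with 0 counts, drawn at the foot of the axis. Knockouts lie above all controls on the left and below all controls on the right, as the choice of these genes requires.

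Podocyte genes did not move as 1 group. Of 13 slit diaphragm genes, 0 rose and 2 fell, and the median log2 fold change was -0.02, against 0.07 over all genes tested. Nphs1, which encodes nephrin, the backbone of the slit diaphragm, was at 15.2, 8.39 and 8.56 CPM across controls and 1.44, 3.49 and 0.914 across knockouts (log2 -2.46, SE 0.55, adjusted p = 0.024). Cd2ap, the adaptor that ties nephrin to actin, fell with log2 -1.38 (adjusted p = 0.0368). Neither call held: that of Nphs1 ended without control 1 (adjusted p = 0.0686), control 2 (0.0601) or control 3 (0.063) and with controls 2 and 3 summed (0.0617). The call of Cd2ap ended without control 1 (adjusted p = 0.0953), control 2 (0.0927), control 3 (0.0987) or knockout 3 (0.0782) and with controls 2 and 3 summed (0.0951). The slit diaphragm list had 0 higher and 0 lower with controls 2 and 3 summed, and leaving out 1 library gave 1 higher without knockout 1, and gave 0 lower without each control and 1 lower without knockout 3.

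Wt1, Synpo and Podxl did not pass, and their libraries overlapped. Synpo, an actin-binding protein of foot processes, was at 367, 99.2 and 99.7 CPM across controls and 48.6, 322 and 265 across knockouts (adjusted p = 0.909). Podxl, the charged sialoprotein of the podocyte surface, was at 582, 286 and 297 CPM across controls and 149, 437 and 362 across knockouts (adjusted p = 0.697). In both genes control 1 and knockouts 2 and 3 were high, and controls 2 and 3 and knockout 1 were low. Wt1, a transcription factor that podocytes need, was at 63.6, 32.8 and 30.8 CPM across controls and 29.5, 80.4 and 67.1 across knockouts (log2 0.48, adjusted p = 0.498), with the same libraries high and low.

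Of 12 podocyte transcription factors, 1 rose and 2 fell (median 0.03). Mecom, a zinc finger factor, was at 43.9, 39.7 and 41.5 CPM across controls and 15, 17.2 and 23 across knockouts (log2 -1.18, SE 0.18, adjusted p = 0.00811). Its call held, unlike those of Tbx18 (2.96) and Klf15 (-1.33). The podocyte transcription factors list had 0 higher and 1 lower with controls 2 and 3 summed, and leaving out 1 library gave 0 higher without each control or knockout 2 or 3, and gave 1 lower without each control or knockout 1 or 3. Relative to the control mean, the median of this list was -0.72 in knockout 1, 0.52 in knockout 2 and 0.62 in knockout 3 on the log2 scale, and 0.71 in control 1.

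Among 20 genes of foot processes and the podocyte surface, 2 rose and 4 fell, and all 6 calls held. Bmp7, a secreted factor that protects kidney epithelia, was at 45.5, 28.9 and 26.4 CPM across controls and 5.33, 6.40 and 4.51 across knockouts (log2 -2.63, SE 0.27, adjusted p = 0.00343). Ezr, which links podocalyxin to actin, was at 390.0, 342 and 349 CPM across controls and 183, 129 and 127 across knockouts (log2 -1.3, SE 0.18, adjusted p = 0.00627). Npnt, a matrix ligand made by podocytes, fell with log2 -0.97 (SE 0.13), and the cell cycle inhibitor Cdkn1c with -1.78. The risen genes were Tmsb4x, which encodes the actin monomer binder thymosin beta 4 (log2 0.98), and the actin-associated Pdlim2 (1.17). Leaving out 1 library gave 5 higher without knockout 1.

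Of 12 genes of the glomerular basement membrane and its receptors, 2 rose and 2 fell (median -0.14). Each count is 16.7% of the list, against 9.33% called higher and 11.9% called lower over all genes tested. Agrn, which encodes agrin, the main heparan sulphate proteoglycan of this membrane, was at 1337, 1003 and 1026 CPM across controls and 270.2, 179 and 251 across knockouts, a 4.81-fold fall (log2 -2.27, SE 0.21, adjusted p = 0.00313). Itga3 (chromosome 11, 95044474 to 95076801), the alpha chain of the laminin receptor that anchors podocytes, was at 1142, 831 and 832 CPM across controls and 240.2, 233 and 178 across knockouts (log2 -2.11, SE 0.2, adjusted p = 0.00319). Its partner chain Itgb1 rose (log2 0.78, adjusted p = 0.0109), as did Cd151, the tetraspanin bound to this receptor (409, 426 and 409 CPM across controls and 962, 919.8 and 790.2 across knockouts; log2 1.1, adjusted p = 0.00438). The calls of Agrn, Itga3 and Cd151 held, and that of Itgb1 ended without control 2 (adjusted p = 0.0626) or control 3 (0.0636) and with controls 2 and 3 summed (0.063). The collagen IV chains Col4a3, Col4a4 and Col4a5 did not pass (log2 -0.28, -0.25 and 0.15). The basement membrane list had 1 higher and 2 lower with controls 2 and 3 summed, and leaving out 1 library gave 1 higher without control 2 or 3.

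Of 32 genes of the Hippo core and its regulators, 0 rose and 5 fell (median -0.15), against 9.33% called higher and 11.9% called lower over all genes tested. The 5 calls are 15.6% of the list, close to that share, and all 5 held. Wwc1 (KIBRA; chromosome 11, 35838400 to 35980527), the scaffold that brings Lats kinases to the membrane, was at 452, 434 and 444 CPM across controls and 74.2, 48.6 and 94.6 across knockouts, a 6.12-fold fall (log2 -2.61, SE 0.25, adjusted p = 0.00324). Amot, an angiomotin that binds and retains Yap1, was at 217, 182 and 195 CPM across controls and 63.3, 41.9 and 73.1 across knockouts (log2 -1.73, SE 0.22, adjusted p = 0.00539). Every knockout library of these genes lay below every control, by more than 2-fold.

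Amotl1, a second angiomotin, fell with log2 -1.12 (SE 0.17, adjusted p = 0.0083). Ajuba, a LIM protein that inhibits Lats kinases, was at 307, 278 and 279 CPM across controls and 141, 145 and 145 across knockouts (log2 -1.0, SE 0.1, adjusted p = 0.00351). Tead4, one of the DNA-binding partners of Yap1, was at 10.0, 11.1 and 10.5 CPM across controls and 3.70, 2.90 and 2.74 across knockouts (log2 -1.76, SE 0.2, adjusted p = 0.00426). The fallen genes thus include both activators and an inhibitor of the Lats kinases, and 1 Tead factor. Yap1 (log2 0.23, SE 0.25, adjusted p = 0.569), Wwtr1 (0.32, 0.18, 0.261), Lats1 (-0.44, 0.16, 0.107), Lats2 (-0.01, 0.26, 0.983), Stk3 (0.49, 0.23, 0.196), Stk4 (-0.19, 0.1, 0.257) and Tead1 (-0.14, 0.37, 0.829) did not pass. The Hippo list had 0 higher and 5 lower with controls 2 and 3 summed, and leaving out 1 library gave 3 higher without knockout 1.

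Among 27 targets of YAP and TAZ, 0 rose and the median was -0.01. The list had 4 fallen genes (14.8%, against 11.9% over all genes tested), and these calls held. Beside Msln and Ajuba they were Myof, a membrane repair protein (862, 718 and 738 CPM across controls and 269.7, 308 and 357 across knockouts; log2 -1.31), and Sox9, a transcription factor of kidney epithelia (62.1, 50.0 and 49.7 CPM across controls and 10.7, 4.85 and 15.1 across knockouts; log2 -2.4). The targets most used as a readout did not pass: Ccn1 was at 1121, 623 and 645 CPM across controls and 583, 680.3 and 987 across knockouts (adjusted p = 0.878), and Ccn2 (log2 0.32, 0.595) and Ankrd1 (-0.26, 0.533) had p-values above the threshold too. The YAP/TAZ list had 0 higher and 4 lower with controls 2 and 3 summed, and leaving out 1 library gave 3 higher without knockout 1.

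The core of the Tead motif, GGAATG or its reverse complement CATTCC, was looked for in the 250 bases before the start of each gene (RefSeq promoters, GRCm38.p6). It was present in 12.6% of 32851 promoters and in 7 of the 19 YAP/TAZ target genes that had a promoter in the table. A gene was counted when any of its promoters matched, so the share of promoters and the count of genes are not alike in unit. The promoters of Ajuba, which fell, and Ccn1, which did not pass, both held it. They are printed 5′ to 3′ on the gene's strand, with the match in capitals, to set a called target beside one that did not pass. The genes were chosen after their values were seen.
Ajuba, chr14:54577662-54577911, minus strand: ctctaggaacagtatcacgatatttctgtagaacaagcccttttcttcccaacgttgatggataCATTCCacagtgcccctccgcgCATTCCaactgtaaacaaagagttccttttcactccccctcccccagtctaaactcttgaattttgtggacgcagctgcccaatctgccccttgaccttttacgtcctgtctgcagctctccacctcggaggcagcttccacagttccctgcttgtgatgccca
Ccn1, chr3:145649986-145650235, minus strand: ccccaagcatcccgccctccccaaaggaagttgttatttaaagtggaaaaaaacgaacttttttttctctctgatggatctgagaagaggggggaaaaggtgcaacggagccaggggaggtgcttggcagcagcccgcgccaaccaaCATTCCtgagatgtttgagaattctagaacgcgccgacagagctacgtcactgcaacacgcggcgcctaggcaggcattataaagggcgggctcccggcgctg
The Ajuba matches begin 186 and 164 bases before the start and the Ccn1 match 103 bases before it. Both genes were taken from those that held the motif, so this pair cannot show whether the motif separates called targets from others. The called targets Msln, Myof and Sox9 were not among the genes with a match, and some listed genes had no promoter to search.

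All calls among contractile genes were upward. Of 16 genes of smooth muscle contraction, 9 rose and 0 fell (median 1.66). Actg2, the enteric form of smooth muscle actin, was at 7.78, 7.83 and 7.10 CPM across controls and 42.8, 62.2 and 62.5 across knockouts (log2 2.88, SE 0.19, adjusted p = 0.002). Cnn1 (calponin), which binds actin and myosin, was at 60.4, 76.2 and 73.8 CPM across controls and 223, 317 and 307 across knockouts (log2 2.01, SE 0.18, adjusted p = 0.00296). Tagln, an actin-bundling protein, was at 1321, 1698 and 1729.9 CPM across controls and 4128, 8079 and 5575 across knockouts (log2 1.9, SE 0.28, adjusted p = 0.00702). These calls held, as did that of Tpm2 (tropomyosin, log2 1.68), and in each gene knockout 1 was the knockout closest to the controls.

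Acta2, smooth muscle actin, was at 1173, 1200.1 and 1185 CPM across controls and 2354, 6549 and 5427 across knockouts (log2 2.01, SE 0.37, adjusted p = 0.0131), and its call ended without control 2 (adjusted p = 0.0574) or control 3 (0.0592) and with controls 2 and 3 summed (0.0587). The contractile list had 4 higher and 0 lower with controls 2 and 3 summed, and leaving out 1 library gave 5 higher without control 1 or knockout 2 and 4 higher without control 2 or 3. The summed level of the whole list was 8796, 8798 and 9125 CPM across controls and 15095, 24328 and 21657 across knockouts. Among 15 pericyte and mesangial genes, 4 rose and 1 fell (median 0.38). Rgs5, a regulator of G protein signalling in pericytes, was at 12, 27 and 26.5 CPM across controls and 101, 294 and 141 across knockouts (log2 3.03, SE 0.51, adjusted p = 0.0102), and its call held. Pdgfrb, the receptor that defines pericytes, was at 120.5, 39.1 and 40.4 CPM across controls and 26.7, 140.2 and 147 across knockouts (adjusted p = 0.578) and overlapped between groups. The pericyte list had 1 higher and 0 lower with controls 2 and 3 summed, and leaving out 1 library gave 1 higher without control 1 or 2 or knockout 2 and 2 higher without control 3, and gave 0 lower without each control or knockout 3 and 2 lower without knockout 2. The part of pericytes or smooth muscle cells in the contractile rise was not tested.

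Most calls among matrix genes were upward too. Of 22 fibrillar collagen and matrix genes, 8 rose and 1 fell (median 1.32). Sparc, a matricellular glycoprotein, was at 2746, 1958 and 2021 CPM across controls and 5798, 12061 and 9138 across knockouts (log2 2.01, SE 0.3, adjusted p = 0.00762). Col3a1, a fibrillar collagen chain, was at 35.4, 17.7 and 17.8 CPM across controls and 141, 145 and 321 across knockouts (log2 3.1, SE 0.46, adjusted p = 0.00726). Dcn, the small proteoglycan decorin, was at 0.410, 0.463 and 0.828 CPM across controls and 3.45, 14.6 and 7.77 across knockouts (log2 3.91, SE 0.62, adjusted p = 0.00875), and Thbs2 (thrombospondin 2) rose with log2 2.58. These 4 calls held. The matrix list had 4 higher and 0 lower with controls 2 and 3 summed, and leaving out 1 library gave 4 higher without control 2 or 3 and 5 higher without knockout 2, and gave 0 lower without each library.

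Enzymes that crosslink and degrade matrix moved both ways. Of 21 such genes, 6 rose (28.6%) and 4 fell (19%), with a median of 0.57. Timp1, an inhibitor of metalloproteinases, was at 134, 138 and 144 CPM across controls and 319, 365 and 393 across knockouts (log2 1.37, SE 0.12, adjusted p = 0.00296), and Plau, the urokinase that activates plasmin, was at 1811, 1566 and 1596 CPM across controls and 485, 197 and 371 across knockouts (log2 -2.24, SE 0.33, adjusted p = 0.0072). Both calls held. The lysyl oxidases Lox (log2 1.82) and Loxl3 (1.7), which crosslink collagen, and the tissue plasminogen activator Plat (0.79) rose, without holding. The crosslinking list had 1 higher and 1 lower with controls 2 and 3 summed, and leaving out 1 library gave 1 higher without control 2 or 3, and gave 1 lower without each control and 2 lower without knockout 1 or 2. Focal adhesion and actin genes had 2 risen and 2 fallen of 21, of which the fall of Pxn (paxillin, log2 -0.87) held. Each count is 9.52% of the list, close to the shares over all genes tested (9.33% and 11.9%). The focal adhesion list had 0 higher and 1 lower with controls 2 and 3 summed, and leaving out 1 library gave 0 higher without control 2 or 3 and 1 higher without knockout 2, and gave 1 lower without each control or knockout 1 or 2.

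**Figure D3:**
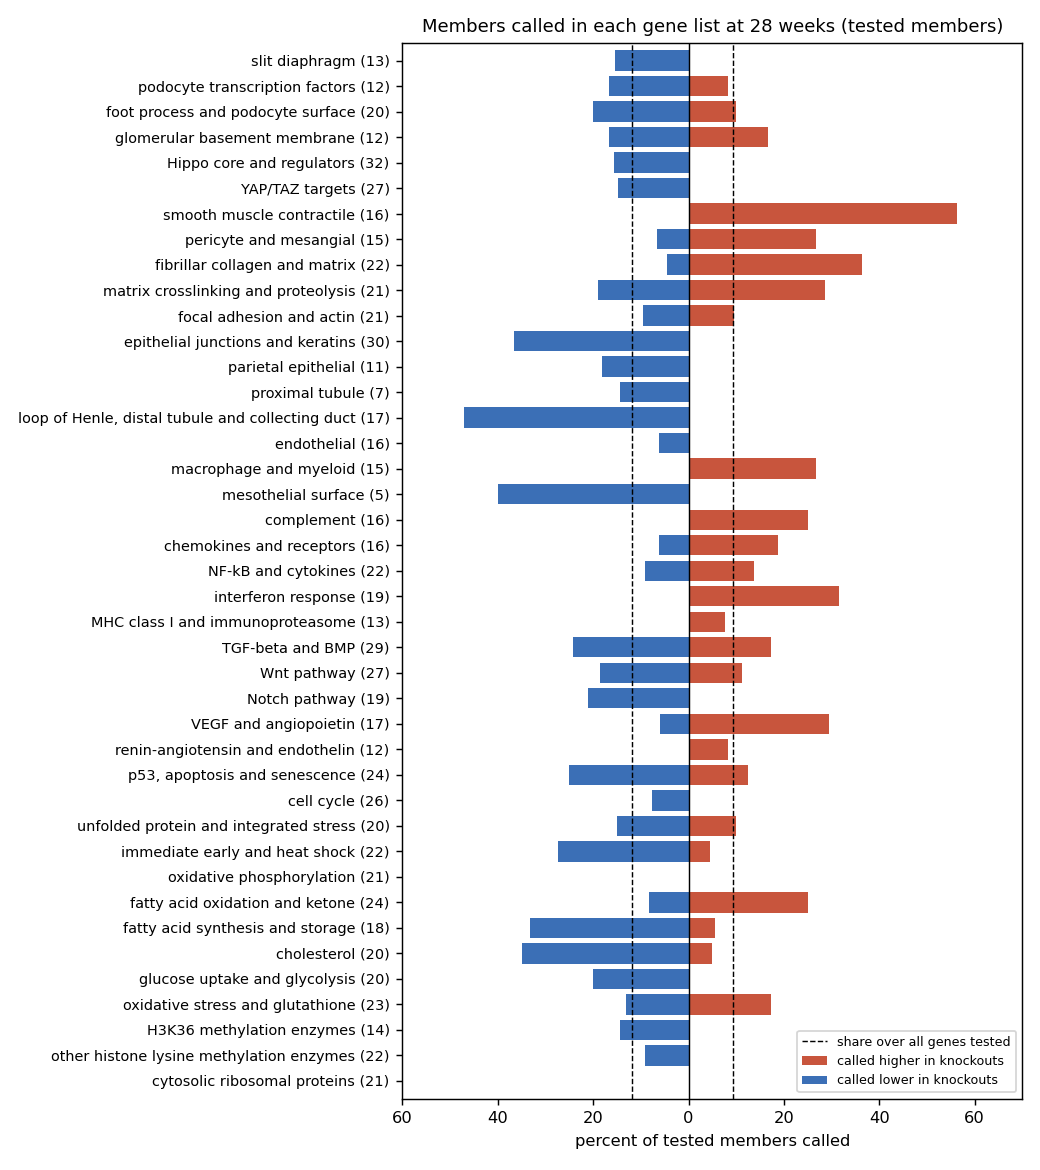
Percent of the tested members of each gene list that were called higher (red, right) or lower (blue, left) in the knockouts, with the number tested in brackets; dashed lines mark the shares over all genes, 9.33% and 11.9%. Contractile and matrix lists reach furthest to the right, and the distal tubule, mesothelial and junction lists furthest to the left.

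All calls among epithelial junction genes were downward. Of 30 junction and keratin genes, 0 rose and 11 fell, 29 had negative values and the median was -2.79. Cdh1 (chromosome 8, 106603351 to 106670246), which encodes E-cadherin of adherens junctions, was at 805, 509 and 521 CPM across controls and 18.9, 2.18 and 38 across knockouts (log2 -4.95, SE 0.97, adjusted p = 0.0163). Dsp, the plaque protein of desmosomes, was at 179, 139 and 146 CPM across controls and 12.4, 19 and 24.1 across knockouts (log2 -3.06, SE 0.27, adjusted p = 0.00296). Grhl2, a transcription factor of junctional epithelia, was at 47.9, 37.6 and 38.3 CPM across controls and 2.32, 0.264 and 2.51 across knockouts (log2 -4.59, SE 0.7, adjusted p = 0.00791). Calls of these 3 genes held, as did those of the tight junction genes Cgn (log2 -3.61), Marveld2 (-3.82) and Tjp3 (-2.49), the factors Elf3 (-3.99) and Ovol2 (-5.31), and Krt20 (-3.85).

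Knockout 1 was less low than the other knockouts over this list and lay above all controls in 7 of its members. Krt8, a keratin of simple epithelia, was at 111, 2352 and 2376 CPM across controls and 5545, 29.9 and 196 across knockouts (adjusted p = 0.94). Epcam, an epithelial adhesion molecule, was at 229, 369.9 and 375 CPM across controls and 478, 0.527 and 39.2 across knockouts (adjusted p = 0.741). In both genes knockout 1 lay above all controls and knockouts 2 and 3 lay low. Over the list, the median log2 difference from the control mean was -1.78 in knockout 1, with 20 members below all controls, -5.64 in knockout 2 and -3.05 in knockout 3. The junction list had 0 higher and 9 lower with controls 2 and 3 summed, and leaving out 1 library gave 17 lower without knockout 1 or 2.

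Calls among tubule genes were downward as well. Of 17 tested genes of the distal nephron (loop of Henle to collecting duct), 0 rose and 8 fell (median -2.01). Scnn1a, the alpha subunit of the epithelial sodium channel, was at 39.5, 24.6 and 25.8 CPM across controls and 1.66, 0.791 and 1.89 across knockouts (log2 -4.36, SE 0.39, adjusted p = 0.00296). Its partner subunit Scnn1b was at 4.76, 3.34 and 2.99 CPM across controls and 0.0627, 0.0330 and 0.0286 across knockouts (adjusted p = 0.002), and Scnn1g had 3 counts over the knockouts, a ratio of 73 (95% counting interval 24.7 to 356). All 3 subunits of this channel thus fell, and their calls held. The distal tubule list had 0 higher and 5 lower with controls 2 and 3 summed, and leaving out 1 library gave 5 lower without control 2 or 3.

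Parietal epithelial genes had 2 fallen of 11: Pax2, a kidney developmental factor (61.9, 39.6 and 38.2 CPM across controls and 10.8, 5.11 and 12 across knockouts; log2 -2.32), whose call held, and Pax8 (-0.65), whose call did not. Mesothelial surface genes had 2 fallen of 5, Msln and Upk3b (log2 -2.4), and the call of Upk3b did not hold. Endothelial genes had 1 fallen of 16 (6.25%, against 11.9% over all genes tested), Plvap (log2 -1.73), which did not hold. The parietal list had 0 higher and 1 lower with controls 2 and 3 summed, and leaving out 1 library gave 1 higher without control 1, and gave 1 lower without each control and 4 lower without knockout 3. The mesothelial list had 0 higher and 1 lower with controls 2 and 3 summed, and leaving out 1 library gave 1 lower without each control or knockout 2 or 3. The endothelial list had 0 higher and 0 lower with controls 2 and 3 summed, and leaving out 1 library gave 0 lower without each control or knockout 2. The summed level of the parietal list was 3086, 6519 and 6738 CPM across controls and 9853, 1289 and 1969 across knockouts, with knockout 1 above and knockouts 2 and 3 below every control. This list holds the abundant keratin Krt8, whose levels are given above, so the sum does not stand for most members. Over its 11 tested members, the median log2 difference from the control mean was -0.64 in knockout 1, where 3 members lay above and 7 below all controls. It was -1.5 in knockout 2 and -0.82 in knockout 3. The summed level of the distal tubule list was 2753, 2289 and 2325 CPM across controls and 1299, 31.7 and 321 across knockouts. The sodium channel subunits named above were a small part of this sum, which mostly follows more abundant members. Over the 17 tested members, the median log2 difference from the control mean was -0.97, -2.84 and -2.41 in knockouts 1 to 3. In knockout 1, 4 members lay above and 9 below all controls. The part of fewer tubule or parietal cells in these falls was not tested.

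**Figure D4:**
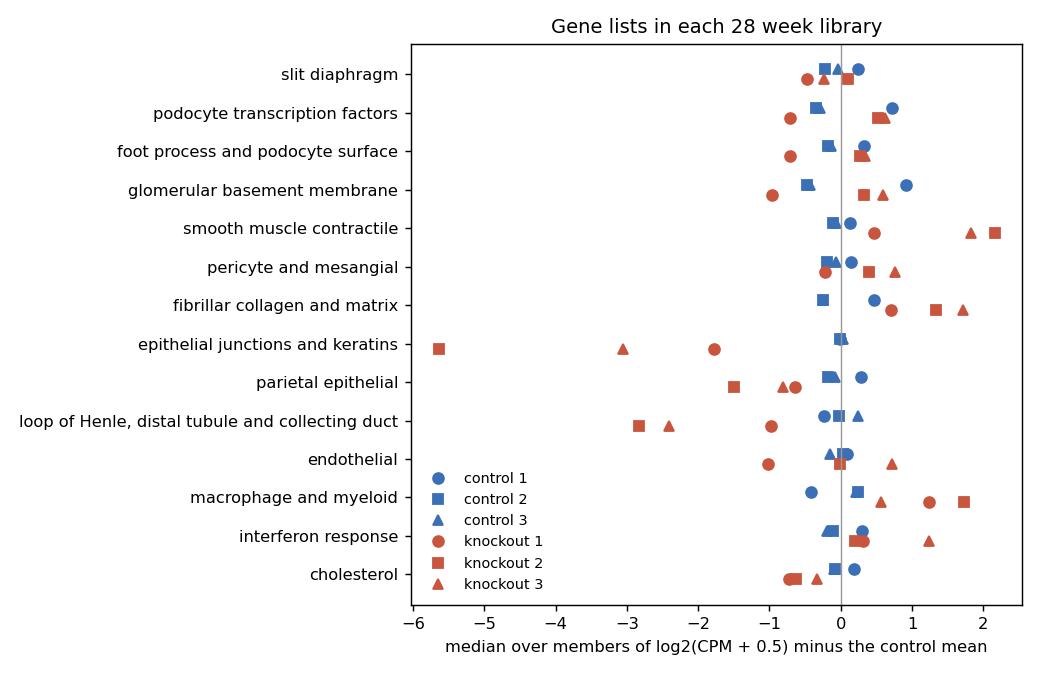
Median over the tested members of each list of log2(CPM + 0.5) minus the mean of the 3 controls, 1 point per library, with circles, squares and triangles for libraries 1, 2 and 3. Knockout 1 is the lowest library for the podocyte lists and the knockout nearest to the controls for the contractile, junction and distal tubule lists.

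Myeloid genes were higher in part. Of 15 macrophage and myeloid genes, 4 rose and 0 fell (median 1.24). Beside Lyz2, the call of Adgre1, which encodes the macrophage surface protein F4/80, held (1.18, 1.54 and 1.71 CPM across controls and 6.43, 6.92 and 8.57 across knockouts; log2 2.31, SE 0.25, adjusted p = 0.00389). Fcer1g (log2 1.45) and Tyrobp (1.88), signalling adaptors of myeloid receptors, rose without holding. Csf1r, the receptor on which macrophages depend, did not pass (12.5, 10.3 and 9.13 CPM across controls and 4.64, 7.71 and 10.4 across knockouts, adjusted p = 0.33), nor did Ptprc, the pan-leukocyte CD45 (1.41, 4.90 and 5.42 CPM across controls and 11.2, 1.98 and 3.60 across knockouts, 0.68).

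The summed level of the myeloid list was 111, 141 and 139 CPM across controls and 690.1, 877 and 899 across knockouts; Lyz2 alone gave 505, 661 and 785 CPM in the knockouts. The myeloid list had 2 higher and 0 lower with controls 2 and 3 summed, and leaving out 1 library gave 2 higher without control 2 or 3. None of 13 lymphocyte and red cell genes had enough reads to be tested. The part of macrophages in these values was not tested.

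Chemokines were called in both directions: of 16 chemokines and receptors, 3 rose (18.8%) and 1 fell (6.25%). Ccl9, a chemokine of monocytes, was at 1.38, 3.02 and 3.56 CPM across controls and 9.63, 16.2 and 18.7 across knockouts (log2 2.48, SE 0.43, adjusted p = 0.011), and Ccl2, the main monocyte chemoattractant, was at 7.45, 21.9 and 22.5 CPM across controls and 23.3, 229.9 and 231 across knockouts (log2 3.22, SE 0.89, adjusted p = 0.0472). Calls of Ccl7, Ccl9 and Ppbp held, and that of Ccl2 did not. The chemokine list had 2 higher and 1 lower with controls 2 and 3 summed, and leaving out 1 library gave 5 higher without knockout 1. Complement genes had 4 risen of 16 (median 1.18), of which Cd59a, an inhibitor of the membrane attack complex, held (67.8, 93.2 and 92.9 CPM across controls and 195, 208 and 150.3 across knockouts; log2 1.12). The complement list had 1 higher and 0 lower with controls 2 and 3 summed, and leaving out 1 library gave 1 higher without control 2 or 3, 7 higher without knockout 1 and 2 higher without knockout 2 or 3. NF-kB and cytokine genes had 3 risen and 2 fallen of 22; the falls of Il33, an alarmin (log2 -2.14), and Lif, a cytokine of the interleukin 6 family (127, 100.4 and 97.1 CPM across controls and 20.3, 11.2 and 31 across knockouts; log2 -2.37), held, while the rises of Il18, Il1a and Il6 did not. The cytokine list had 0 higher and 2 lower with controls 2 and 3 summed, and leaving out 1 library gave 1 higher without control 1 or 2 or knockout 3 and 0 higher without control 3, and gave 6 lower without knockout 3.

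Interferon response genes rose in part. Of 19 such genes, 6 rose and 0 fell (median 0.87). Isg15, a ubiquitin-like modifier, was at 4.25, 4.15 and 4.57 CPM across controls and 27.9, 16 and 30.2 across knockouts (log2 2.51, SE 0.27, adjusted p = 0.00371). Ifi27, a mitochondrial interferon-induced protein gene, was at 53.6, 57.5 and 57.2 CPM across controls and 139, 203 and 189.7 across knockouts (log2 1.66, SE 0.16, adjusted p = 0.00326). Gbp2, a guanylate-binding GTPase, rose with log2 1.52 and Ifi35 with 0.96. These 4 calls held, and those of Ifit1 and Usp18 did not. The interferon list had 4 higher and 0 lower with controls 2 and 3 summed, and leaving out 1 library gave 1 lower without knockout 3. In the MHC class I list 1 of 13 rose: H2-T23, a non-classical class I molecule (33.4, 34.3 and 31.5 CPM across controls and 81.3, 91.3 and 83.3 across knockouts; log2 1.37, SE 0.11, adjusted p = 0.00238).

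The interferon-stimulated response element, searched as GAAANNGAAA or its reverse complement, was present in the 250 bases before the start of 2.98% of 32851 promoters. It was present in 9 of the 16 interferon list genes with a promoter in the table, again counting a gene when any of its promoters matched. The promoter of Isg15 is shown because it held 3 overlapping matches, in capitals, 78, 72 and 66 bases before the start. The gene was chosen after its values were seen.
Isg15, chr4:156200819-156200968, minus strand: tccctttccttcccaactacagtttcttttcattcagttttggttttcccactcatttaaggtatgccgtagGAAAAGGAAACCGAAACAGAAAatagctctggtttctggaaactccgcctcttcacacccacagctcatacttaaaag
A match is a description of the letters in this window and does not show that a factor was bound.

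Among signalling pathways, TGF-beta and BMP genes had 5 risen and 7 fallen of 29 (median -0.02). The fallen genes included the latency protein Ltbp1, which stores the ligand in matrix (146, 114 and 114 CPM across controls and 25.4, 17 and 29.9 across knockouts; log2 -2.37, SE 0.24, adjusted p = 0.00338), the receptor Tgfbr2 (log2 -1.15) and its signal transducer Smad3 (229.9, 174 and 180.4 CPM across controls and 55.2, 63 and 73.1 across knockouts; log2 -1.61, SE 0.17, adjusted p = 0.00351). The BMP ligand Bmp4 rose (log2 2.46) and Bmp7 fell, and the BMP antagonist Nog fell (-2.07). Of these, all but the call of Bmp4 held. The TGF-beta and BMP list had 1 higher and 5 lower with controls 2 and 3 summed, and leaving out 1 library gave 2 higher without control 1, 1 higher without control 2 or 3 and 3 higher without knockout 2 or 3.

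In the Wnt pathway 3 rose (11.1%) and 5 fell (18.5%) of 27 genes, against 9.33% and 11.9% over all genes tested. The receptor Fzd4 was at 77.4, 64.7 and 66.6 CPM across controls and 14.4, 13.4 and 21.7 across knockouts (log2 -2.07, SE 0.22, adjusted p = 0.00357), and the effector Tcf7 fell too (log2 -1.54). Dkk2 (log2 1.71) and Dkk3 (113, 69.7 and 70.8 CPM across controls and 208, 393 and 447 across knockouts; log2 2.05), of the Dickkopf family of secreted Wnt modulators, rose. These 4 calls held. The Wnt list had 2 higher and 3 lower with controls 2 and 3 summed, and leaving out 1 library gave 6 higher without knockout 1, and gave 2 lower without control 1 or 2 and 3 lower without control 3 or knockout 2. Notch genes had 4 fallen of 19 and 0 risen: the ligands Jag1 (log2 -1.03), Jag2 (-2.12) and Dll1 (-2.71) and the feedback inhibitor Nrarp (-1.77), of which only the call of Nrarp held in all 7 refits. The Notch list had 0 higher and 3 lower with controls 2 and 3 summed, and leaving out 1 library gave 1 higher without knockout 1, and gave 1 lower without control 3.

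VEGF and angiopoietin genes had 5 risen and 1 fallen of 17. Flt4, the receptor of lymphatic vessel growth factors, was at 85.2, 54.2 and 55.4 CPM across controls and 2.26, 3.00 and 6.46 across knockouts (log2 -4.05, SE 0.45, adjusted p = 0.00404). The lipoprotein lipase inhibitor Angptl4 was at 36.2, 59.3 and 55.5 CPM across controls and 149.5, 131 and 187 across knockouts (log2 1.63) and Angptl2, of the same family, rose with 0.89. These 3 calls held. The VEGF list had 2 higher and 1 lower with controls 2 and 3 summed, and leaving out 1 library gave 2 higher without control 1 or 2 or knockout 2 and 3 higher without control 3 or knockout 3, and gave 2 lower without knockout 3. In the renin-angiotensin and endothelin list 1 of 12 rose, the glucocorticoid receptor Nr3c1 (log2 0.77), a share of 8.33% against 9.33% over all genes. The call of Nr3c1 ended without control 2 (adjusted p = 0.0528) and with controls 2 and 3 summed (0.05001). The renin list had 0 higher and 0 lower with controls 2 and 3 summed, and leaving out 1 library gave 0 higher without control 2 and 2 higher without knockout 1, and gave 1 lower without knockout 1 and 2 lower without knockout 2.

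Most calls among genes of sterol and fatty acid synthesis were downward. Of 20 cholesterol genes, 1 rose and 7 fell (median -0.55). Lss, which closes the sterol rings, was at 76.2, 66.4 and 62.6 CPM across controls and 20.4, 27.5 and 34.3 across knockouts (log2 -1.32, SE 0.21, adjusted p = 0.00865). The isoprenoid enzymes Idi1 and Fdps fell with log2 -0.93 and -0.97. These 3 calls held. The cholesterol list had 0 higher and 4 lower with controls 2 and 3 summed, and leaving out 1 library gave 0 higher without control 2 or 3 or knockout 2 or 3 and 2 higher without knockout 1, and gave 4 lower without control 2 or 3 or knockout 2.

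Of 18 fatty acid synthesis and storage genes, 1 rose and 6 fell. Fasn, the fatty acid synthase, was at 286, 189 and 206 CPM across controls and 86.4, 90.6 and 123 across knockouts (log2 -1.18, SE 0.22, adjusted p = 0.0133), and the desaturase Scd2 fell with log2 -1.15. The risen gene was Cd36, a fatty acid uptake receptor (2.51, 2.15 and 2.01 CPM across controls and 7.18, 16.5 and 20.4 across knockouts; log2 2.72, SE 0.41, adjusted p = 0.00732). These 3 calls held. Whether the falls of Fasn and Scd2 and the rise of Cd36 came from the same cells was not tested. The fatty acid synthesis list had 1 higher and 4 lower with controls 2 and 3 summed, and leaving out 1 library gave 3 lower without each control or knockout 2. Fatty acid oxidation and ketone genes had 6 risen and 2 fallen of 24. Slc25a20, the carnitine carrier of mitochondria, was at 46.6, 47.6 and 43 CPM across controls and 86.4, 87.1 and 81.6 across knockouts (log2 0.9, SE 0.1, adjusted p = 0.00418). Its call held. The oxidation list had 2 higher and 0 lower with controls 2 and 3 summed, and leaving out 1 library gave 3 higher without control 1 or knockout 2 and 2 higher without control 2 or 3, and gave 0 lower without each control and 1 lower without knockout 3.

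Glucose genes had 4 fallen of 20 and 0 risen. Hk2, the inducible hexokinase, was at 185, 127 and 131 CPM across controls and 28.4, 23 and 44.9 across knockouts (log2 -2.2, SE 0.29, adjusted p = 0.00602), and its call held. The glucose transporter Slc2a1 (log2 -0.78) and the phosphofructokinase Pfkp (-0.63) fell without holding. The glucose list had 0 higher and 1 lower with controls 2 and 3 summed, and leaving out 1 library gave 2 lower without control 1 or knockout 2 and 1 lower without control 2 or 3. None of 21 oxidative phosphorylation genes and none of 21 ribosomal protein genes was called by edgeR, with medians of 0.19 and 0.2.

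Stress genes were called in both directions, as were genes at large (9.33% higher and 11.9% lower over all genes tested). Among 24 genes of the p53 and cell death list, 3 rose (12.5%) and 6 fell (25%). Fas, the death receptor, was at 4.71, 5.17 and 5.59 CPM across controls and 16.1, 45.9 and 36.1 across knockouts (log2 2.66, SE 0.39, adjusted p = 0.00705). Bcl2l11 (BIM), a pro-apoptotic protein gene, was at 50.9, 43.2 and 41.6 CPM across controls and 17.7, 18.5 and 24.1 across knockouts (log2 -1.17, SE 0.17, adjusted p = 0.00693), and Sesn2, a stress-induced regulator of mTORC1, fell with log2 -1.11. The death receptor rose while a mitochondrial death gene fell, and these 3 calls held. The anti-apoptotic Bcl2l1 of the same list fell too (log2 -0.88, SE 0.18, adjusted p = 0.0184), without holding. The p53 list had 1 higher and 2 lower with controls 2 and 3 summed, and leaving out 1 library gave 1 higher without each control or knockout 2 or 3, and gave 2 lower without each control. Of 20 unfolded protein response genes, 2 rose (10%) and 3 fell (15%), close to the shares over all genes tested. Eif2ak3, the sensor kinase PERK, fell (log2 -1.25) and the chaperone cofactor Dnajb9 rose (0.72), and both calls held. The unfolded protein list had 1 higher and 2 lower with controls 2 and 3 summed, and leaving out 1 library gave 1 higher without each control or knockout 1 or 2, and gave 6 lower without knockout 1.

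Immediate early and heat shock genes had 1 risen and 6 fallen of 22, of which the fall of Fosb held (log2 -2.21). The immediate early list had 0 higher and 1 lower with controls 2 and 3 summed, and leaving out 1 library gave 0 higher without control 2 or 3 or knockout 2, and gave 1 lower without control 2 or 3. Oxidative stress and glutathione genes had 4 risen and 3 fallen of 23; Gsr, glutathione reductase, was at 178, 133 and 137 CPM across controls and 57.3, 36.2 and 45.6 across knockouts (log2 -1.69, SE 0.21, adjusted p = 0.00508), and its call held. The oxidative stress list had 0 higher and 1 lower with controls 2 and 3 summed, and leaving out 1 library gave 1 higher without control 1 or knockout 2 or 3 and 0 higher without control 2 or 3, and gave 1 lower without each control or knockout 2 and 5 lower without knockout 3. Cell cycle genes had 2 fallen of 26 (7.69%, against 11.9% over all genes tested). Ccnd1 (cyclin D1) was at 1499, 1453 and 1505 CPM across controls and 372, 56.5 and 161 across knockouts (log2 -2.92, SE 0.64, adjusted p = 0.0229), and its call ended without control 1 (adjusted p = 0.059), control 2 (0.066), control 3 (0.0692) or knockout 3 (0.0705) and with controls 2 and 3 summed (0.0679). Rrm2, a subunit of ribonucleotide reductase, was at 58.6, 47.9 and 48.2 CPM across controls and 30.4, 35.4 and 28.8 across knockouts (log2 -0.71, SE 0.14, adjusted p = 0.0181), and its call ended without control 2 (adjusted p = 0.058) or control 3 (0.0609) and with controls 2 and 3 summed (0.0587). The cell cycle list had 0 higher and 0 lower with controls 2 and 3 summed, and leaving out 1 library gave 1 higher without knockout 3, and gave 1 lower without control 1 or knockout 3 and 0 lower without control 2 or 3.

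Among 14 enzymes that write or remove methyl marks on lysine 36, Nsd2 and the demethylase Kdm4a fell (log2 -0.66, adjusted p = 0.0143). The sister enzymes Nsd1 (log2 -0.5, adjusted p = 0.0967) and Nsd3 (-0.09, 0.659) and Setd2, a trimethylating enzyme (-0.67, 0.0618) did not pass. The lysine 36 list had 0 higher and 1 lower with controls 2 and 3 summed, and leaving out 1 library gave 1 lower without control 3 and 5 lower without knockout 3. Among 22 enzymes for other histone lysines, Dot1l (log2 -0.86) and Kdm6a (-0.6) fell, and neither call held. The list for other lysines had 0 higher and 0 lower with controls 2 and 3 summed, and leaving out 1 library gave 0 lower without each control or knockout 2. Prm1, a protamine of sperm chromatin, had 0 counts in all controls and 198 over the knockouts, at 1.51, 3.46 and 1.29 CPM, which was at least 81.4-fold higher with a floor of 3 counts over the control group (adjusted p = 0.00796). Prm2, the other protamine, had 1 count in all 6 libraries.

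The 28 week genes were set beside the 20 week libraries, which share no library with them; the 2 ages come from separate tables. Of the 3183 called genes, 3115 were tested at 20 weeks and 2919 had the same sign there (93.7%), against 70.1% of all 14567 genes tested at both ages. At 20 weeks 1473 genes were called (9.92% of those tested), 711 higher (4.79%) and 762 lower (5.13%), and 696 genes were called in the same direction at both ages. That is 21.9% of the 28 week calls and 47.3% of the 20 week calls, and 0 genes were called in opposite directions.

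A difference between the ages was tested as the interaction of genotype and age in 1 edgeR model of all 12 libraries. It called 0 of 15662 genes, with 1428 at an unadjusted p below 0.05, and DESeq2 called 27, with 1595 at an unadjusted p below 0.05. Itga3 had the smallest p (interaction log2 -1.63, SE 0.30, unadjusted p = 0.000198, adjusted p = 0.538): its fold change was -2.11 at 28 weeks and -0.47 at 20 weeks. Lyz2 had log2 3.72 at 28 weeks and 1.44 at 20 weeks, and Wwc1 -2.61 and -1.04; neither interaction passed (both adjusted p = 0.538). Of the 20 foot process genes, 10 were called higher and 2 lower at 20 weeks, where 28 weeks had 2 and 4, and the difference between these counts was not tested.

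**Figure D5:**
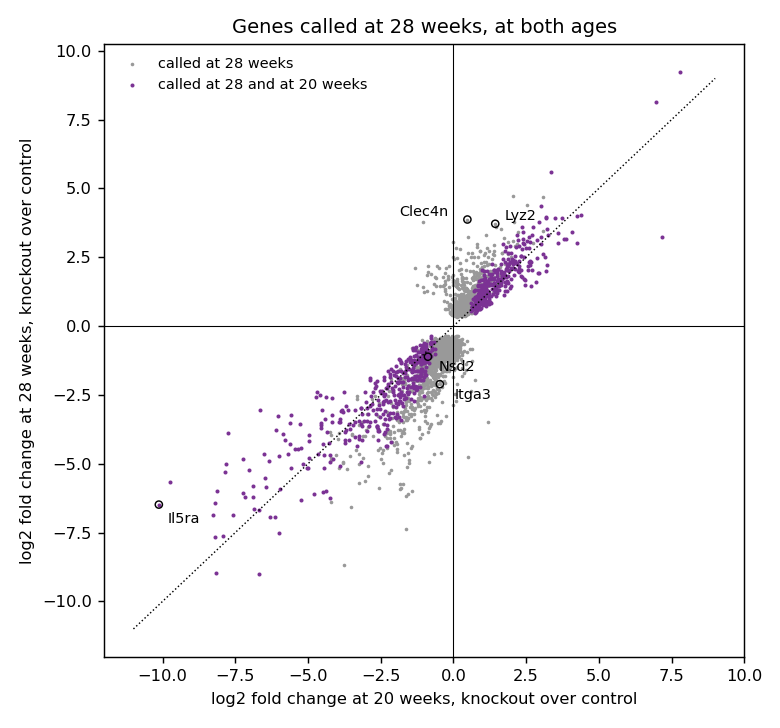
Log2 fold change (knockout over control) at 20 weeks on the x axis and at 28 weeks on the y axis for the 3115 genes called at 28 weeks and tested at both ages; purple points are the 696 genes called in the same direction at both, and the dotted line marks equal values. Most points lie at the lower left and upper right, where the sign is the same at both ages (2919 genes).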

How the data were processed

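RNA from primary podocytes was measured by RNA sequencing. Library preparation used a SMARTER mRNA kit after RNeasy extraction, per the labels' protocols, and all libraries carry 1 batch label. The authors deposited raw read counts per gene symbol, per the file headers. They also deposited FPKM values, which were used here for levels per gene length and for 1 alternative, as log2(FPKM + 1). The build was GRCm38 per the submitters' processing notes; no source used here gives the aligner, the counting program or the strand setting. These tables hold no mitochondrially encoded genes.

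Counts were fitted in R 4.3.3 by the quasi-likelihood F test of edgeR 4.0.16, 3 libraries against 3, after filterByExpr and TMM scaling. All adjusted p-values are from this test with Benjamini-Hochberg adjustment over all genes tested unless another tool is named. Each SE is the log2 fold change over the root of F. CPM used TMM-scaled library sizes. A count of 0 allows up to 0.0732 to 0.0989 CPM per library, taking 3 counts as the limit; such limits and intervals cover counting error only. Alternatives were RLE scaling, library totals only, DESeq2 1.42.0, no filter, at least 1 CPM in 3 libraries, limma 3.58.1 on FPKM, each library left out, controls 2 and 3 summed, a replicate block, and 1 model of all 12 libraries. The fit was tested on simulated counts with independent libraries. These held no pair as alike as controls 2 and 3 and no library set apart as knockout 1 was, so the test does not cover those features. Members and the 45 gene lists were chosen with earlier results of these data known, so lists are described by counts and medians without a test. Named genes were Nsd2, the 10 highest and 10 lowest folds among calls that held whose groups did not overlap and whose mean reached 5 CPM (passing over predicted genes), the called members with the smallest p in each list (4 at most), and a fixed set of podocyte, Hippo and marker genes; other called members are named where a list's calls are spelled out, and Clec4d and Tgtp2 as relatives of named genes. Promoters came from RefSeq (GRCm38.p6) and gene positions from GENCODE M21, matched by symbol. Some genes that met the naming rule are not reported here.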

Additional observations from a re-analysis of the deposited data

How the results depend on the processing

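Under RLE scaling, library totals only, DESeq2, no filter, the 1 CPM filter, limma on FPKM and the model of all 12 libraries, the number of genes higher in knockouts lay between 1126 and 2072 and of genes lower between 1614 and 2407, each within 1.5 times 1400 and 1783. Leaving out 1 library gave 444 to 1480 higher and 822 to 1894 lower, and controls 2 and 3 summed gave 456 and 843; each of these fits has fewer samples. The sources used here do not say whether the replicate numbers pair the libraries. Deviations from the group mean had correlations of -0.566, -0.105 and -0.471 in same-numbered libraries, and of -0.479 to 0.577 in the others. These values cannot decide about a pairing, as each group has 3 libraries and controls 2 and 3 are much alike. With the number as a replicate block, 86 genes were higher and 246 lower, and the Nsd2 log2 fold change at 28 weeks was -1.12 (edgeR adjusted p = 0.0526). Under the other alternatives Nsd2 kept its call, between -1.26 and -0.91. The interaction with age called 0 genes with controls 2 and 3 summed and 27 with DESeq2; the cause was not tested. Over 262 named genes and list counts under 15 alternatives, 3263 values kept their call or size, 314 lost their call, 13 gained one and 337 moved, and 0 called values changed sign. Precision is limited by 3 libraries a group, and more so if controls 2 and 3 came from 1 animal.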
